A study of Mus musculus with 6 samples.

Results

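The tumour necrosis factor (TNF) ligand and receptor superfamilies were followed in mouse kidneys after lipopolysaccharide (LPS), a component of the bacterial outer membrane. The members were 43 of the 17680 gene symbols in the deposited tables, 16 ligands and 27 receptors, chosen by symbol: names that begin with Tnfsf or Tnfrsf and a digit, together with Tnf, Lta, Ltb, Ltbr, Fas, Fasl, Cd40, Cd40lg, Cd27, Cd70, Ngfr, Edar and Eda2r. The LPS group was 3 wild-type C57BL/6 mice injected with LPS into the peritoneal cavity, and the Control group was 3 wild-type C57BL/6 mice given phosphate-buffered saline (PBS) by the same route. All mice were 6 to 8 weeks old, and kidney RNA was taken 24 h after injection (day 1 in the labels). The sources used here give neither the dose and serotype of LPS nor the sex of the mice.

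Ligands of this family are mostly made as membrane proteins with a TNF homology domain that assembles into trimers, and some are released by proteases. Their receptors carry cysteine-rich repeats outside the cell. Death domain receptors such as Tnfrsf1a and Fas recruit adaptors that lead to caspase activation or to NF-kB signalling, TRAF-binding receptors such as Tnfrsf1b, Cd40 and Ltbr recruit TRAF adaptors, and decoy receptors bind ligand without signalling. In kidney the family is known for parts in tubular cell death, leukocyte recruitment and lymphoid responses.

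Library totals lay between 29097558 and 33454344 counts, and the kidney markers Slc34a1, Umod, Nphs1 and Aqp2 averaged 422, 4346, 13.9 and 379 CPM (counts scaled to library size) in LPS kidneys, against 5189, 4477, 36.8 and 415 CPM in Control kidneys. Correlations of log2 CPM lay between 0.982 and 0.986 within LPS, between 0.986 and 0.991 within Control and between 0.905 and 0.916 across the groups. LPS replicate 2 carried 8 seminal vesicle transcripts at 3.62% of its counts, and the other 5 libraries at 0.00327% to 0.00453%. With 177 genes left out that exceeded each other library by over 32-fold there, 14 members were higher and 1 lower, as with them. That step leaves the members' own counts as they are, so it cannot show what the other tissue adds to them. The Control libraries held on average 0.0935% of the seminal vesicle counts of LPS replicate 2. For every member called higher, the summed Control counts were at least 63.4 times that share of its summed LPS counts.

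In the LPS kidneys 14 members were higher and 1 was lower than in Control kidneys, among the 30 of 43 that passed the filter on low counts. In bulk tissue, fewer cells of a type and less RNA per cell cannot be told apart. Levels below are FPKM, the authors' values per length of gene and depth of library. They allow genes to be set side by side as far as the gene lengths used are right. Changes are log2 fold changes of LPS over Control from edgeR's quasi-likelihood test, with p-values adjusted by the Benjamini-Hochberg method over all 14219 genes tested and 0.05 as the threshold. Of those 14219 genes, 25.7% were called higher and 24.8% lower. A call at 2-fold or more was made for 9 higher members, against 8.24% of all genes tested. The LPS values lay above every Control value for 14 of the 30 tested members, against 30.5% of all genes, and below for 1, against 29.8%. The median log2 fold change was 0.79 over the 30 tested members and 0.01 over all genes tested.

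Receptors held most of the calls. Of 27 receptors, 22 were tested, of which 12 were higher and 1 was lower, with a median log2 fold change of 0.84. Of 16 ligands, 8 were tested, of which 2 were higher and 0 lower, with a median of 0.51. Over all genes tested, 25.7% were higher and 24.8% lower. The summed level of the 27 receptors was 419, 485 and 567 FPKM in LPS kidneys, against 169, 193 and 217 FPKM in Control kidneys. The summed level of the 16 ligands was 36.5, 33.2 and 32.8 FPKM in LPS kidneys, against 32.9, 25.9 and 30.1 FPKM in Control kidneys. These sums were apart for receptors and overlapped for ligands, and a few genes carried them. Tnfrsf21, Tnfrsf12a, Tnfrsf1a and Ltbr made up 25.8%, 25.5%, 18.8% and 14.4% of all members' FPKM in LPS replicate 1. In Control replicate 1 their shares were 29.5%, 8.61%, 16.4% and 21.7%. Tnfsf10 held 21.1 of the 36.5 FPKM of ligands in LPS replicate 1, and 19.3 of 32.9 FPKM in Control replicate 1. The difference between ligands and receptors was not tested, since genes are not replicates of a condition.

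**Figure D1:**
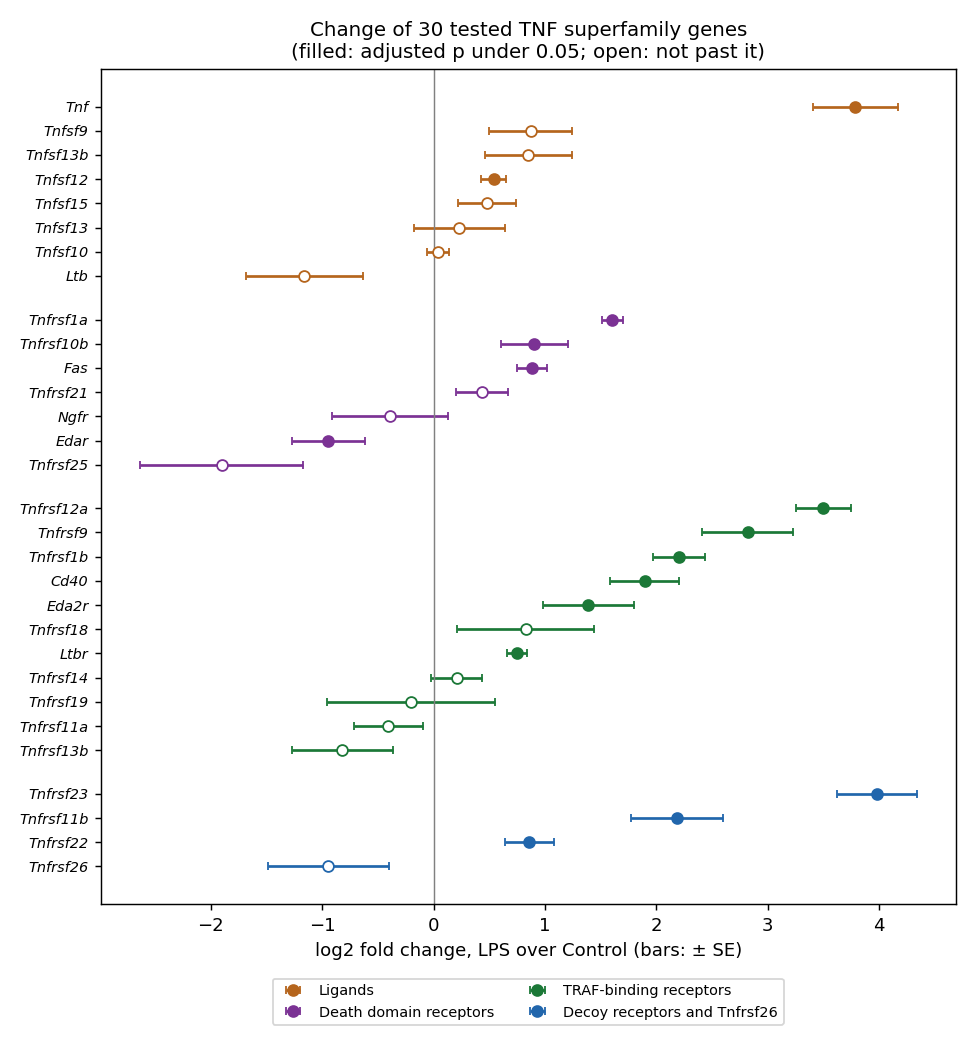
Log2 fold change of LPS over Control (x axis, bars are ± SE) for the 30 tested members (y axis), grouped into ligands, death domain receptors, TRAF-binding receptors and decoy receptors with Tnfrsf26. Filled points passed the threshold: Tnf and Tnfsf12 among ligands, and 13 receptors, of which Edar alone lies left of 0.

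In each group 5 genes averaged at least 10 FPKM, and their order differed. In LPS kidneys the order was Tnfrsf12a, Tnfrsf21, Tnfrsf1a, Ltbr and Tnfsf10, and in Control kidneys it was Tnfrsf21, Ltbr, Tnfrsf1a, Tnfsf10 and Tnfrsf12a. Among LPS kidneys Tnfrsf12a and Tnfrsf21 overlapped in their values, as did Tnfsf10 and Tnfrsf12a among Control kidneys. Tnfrsf12a made up 25.5%, 32.3% and 39.6% of the summed FPKM of the 43 members in LPS kidneys, against 8.61%, 6.97% and 5.67% in Control kidneys. Such orders and shares rest on the gene lengths behind the FPKM. That of Tnfrsf12a was 965 bases, while its exons cover 1932 bases in the GENCODE M21 annotation of GRCm38. By mean CPM in LPS kidneys, Tnfrsf12a stood at 169, below Tnfrsf21 at 452 and Tnfrsf1a at 200.

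Among ligands, Tnf itself had the largest change. Tnf, the founding cytokine of the family, made chiefly by macrophages, was at 1.37, 1.52 and 1.31 FPKM in LPS kidneys, against 0.104, 0.0584 and 0.138 FPKM in Control kidneys. All LPS libraries lay above all Control libraries, and the levels were low in both groups. Tnf rose by a log2 fold change of 3.79 ± 0.38 (SE) with an adjusted p of 5.20e-05 (edgeR). The underlying counts were 73, 84 and 68 counts in LPS kidneys, against 5, 3 and 7 counts in Control kidneys. Tnfsf12, which encodes TWEAK, the ligand of Tnfrsf12a, was at 8.09, 8.93 and 9.03 FPKM in LPS kidneys, against 5.80, 6.21 and 6.04 FPKM in Control kidneys. The groups did not overlap, and Tnfsf12 rose by a log2 fold change of 0.54 ± 0.12 (SE) with an adjusted p of 0.00399 (edgeR).

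Tnfsf10, which encodes the death ligand TRAIL, was the ligand with the highest level and did not pass the test. It stood at 21.1, 18.1 and 17.6 FPKM in LPS kidneys, against 19.3, 16.3 and 20.1 FPKM in Control kidneys, with overlapping groups. Its log2 fold change was 0.04, with a 95% interval of -0.19 to 0.27 and an adjusted p of 0.765 (edgeR). Its sign turned without LPS replicate 1 or Control replicate 2, with log2 fold changes of -0.031 and -0.038.

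Ltb, which encodes lymphotoxin beta, a ligand of lymphocytes, was at 0.510, 0.737 and 1.37 FPKM in LPS kidneys, against 3.55, 1.15 and 1.28 FPKM in Control kidneys. Control replicate 1 was far above the other libraries, and the remaining values of both groups overlapped. Ltb did not pass the test, at a log2 fold change of -1.16 ± 0.52 (SE) with an adjusted p of 0.0938 (edgeR), except without LPS replicate 3, at -1.65 with an adjusted p of 0.0486. Without Control replicate 1 it stood at -0.48 on the log2 scale (adjusted p = 0.428, edgeR). Ltb and Tnf are neighbouring genes in RefSeq's GRCm38.p6 annotation, with no coding gene between them, and Lta lies on the other side of Tnf. Lta, the soluble lymphotoxin, had 3, 2 and 1 counts in LPS kidneys, against 3, 1 and 0 counts in Control kidneys and was not tested.

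Tnfsf13b, which encodes the B cell survival factor BAFF, was at 2.0, 1.83 and 1.23 FPKM in LPS kidneys, against 1.58, 0.551 and 0.715 FPKM in Control kidneys. It did not pass the test, at 0.85 with an adjusted p of 0.0976 (edgeR). Without Control replicate 1, the highest Control library, it passed at 1.40 with an adjusted p of 0.00841. Tnfsf9, the ligand of the T cell costimulator 4-1BB, was at 1.40, 0.736 and 0.957 FPKM in LPS kidneys, against 0.801, 0.450 and 0.457 FPKM in Control kidneys. It too did not pass, at 0.87 with an adjusted p of 0.0808, and passed without Control replicate 1, at 1.17 with an adjusted p of 0.0457 (edgeR). Tnfsf15, also named TL1A and known from endothelium, was at 1.19, 0.590 and 0.956 FPKM in LPS kidneys, against 0.678, 0.596 and 0.701 FPKM in Control kidneys. It did not pass, with an adjusted p of 0.159, except without LPS replicate 2, at 0.72 with an adjusted p of 0.0245 (edgeR). Tnfsf13, the B and plasma cell factor APRIL, did not pass, at 0.23 with a 95% interval of -0.69 to 1.16.

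Exons of Tnfsf12 and Tnfsf13 share 48.3% and 60% of their bases with the read-through gene Tnfsfm13 in the GENCODE M21 annotation of GRCm38. Tnfsf9 shares 14.9% with Gm11110 on the other strand. The sources used here state neither the authors' annotation nor their strand setting, which leaves the counts of these ligands uncertain.

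**Figure D2:**
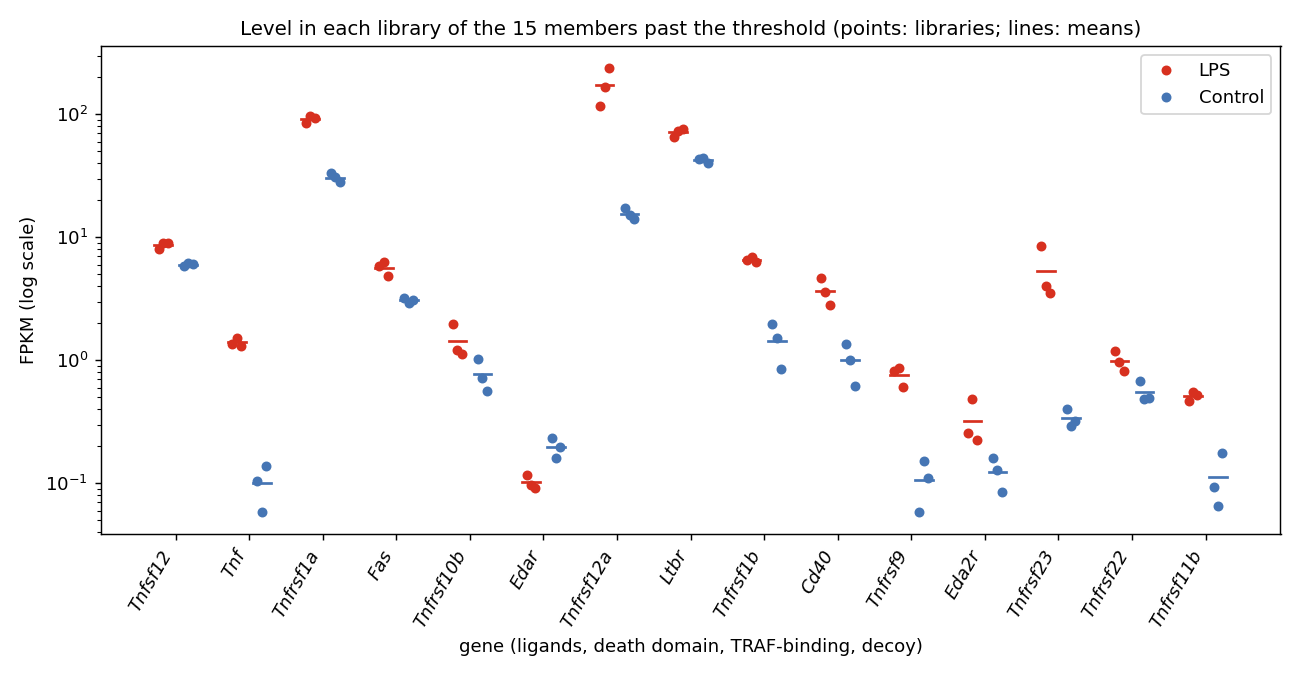
FPKM on a log axis for the 15 members past the threshold in each of the 3 LPS libraries (left of each pair) and 3 Control libraries (right of each pair), with lines at the means. The groups lie apart for each gene, and Edar alone is lower in LPS.

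Among death domain receptors 3 of 7 rose and 1 fell, against 25.7% and 24.8% of all genes tested, and all 7 were tested. Tnfrsf1a, the main receptor of TNF for both NF-kB and cell death signalling, was at 85.7, 97 and 94.3 FPKM in LPS kidneys, against 33.1, 30.7 and 28 FPKM in Control kidneys. The LPS libraries lay close together and well above the Control libraries, and Tnfrsf1a rose by a log2 fold change of 1.60 ± 0.09 (SE) with an adjusted p of 1.86e-06 (edgeR). Fas, the receptor of Fas ligand and a trigger of apoptosis, was at 5.81, 6.26 and 4.88 FPKM in LPS kidneys, against 3.23, 2.91 and 3.13 FPKM in Control kidneys. Fas rose by a log2 fold change of 0.88 ± 0.13 (SE) with an adjusted p of 0.000572 (edgeR), with the lowest LPS library above the highest Control library. Tnfrsf10b, the death receptor for TRAIL, was at 1.96, 1.20 and 1.12 FPKM in LPS kidneys, against 1.03, 0.719 and 0.565 FPKM in Control kidneys. LPS replicate 1 was highest, and the lowest LPS value stood just above the highest Control value. Tnfrsf10b rose by a log2 fold change of 0.90 ± 0.30 (SE) with an adjusted p of 0.032 (edgeR), and the call was lost without LPS replicate 1 (adjusted p = 0.115), Control replicate 2 (0.0946) or Control replicate 3 (0.106).

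Tnfrsf21, also named death receptor 6, had the highest level of any member in Control kidneys and did not pass the test. It was at 118, 119 and 136 FPKM in LPS kidneys, against 59.6, 91.7 and 125 FPKM in Control kidneys. The LPS libraries lay close together, while Control replicate 3 reached their range and Control replicate 1 lay lowest. The log2 fold change was 0.43 ± 0.23 (SE), with an adjusted p of 0.145 (edgeR). Without Control replicate 3 it was 0.73 with an adjusted p of 0.0161.

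Edar, the ectodysplasin receptor of skin appendages, was the only member called lower. It was at 0.117, 0.0966 and 0.0917 FPKM in LPS kidneys, against 0.234, 0.162 and 0.200 FPKM in Control kidneys, with low levels in both groups and no overlap. Its log2 fold change was -0.95 ± 0.33 (SE) with an adjusted p of 0.0373 (edgeR). The call was lost on leaving out any 1 of the 6 libraries, with adjusted p-values between 0.0549 and 0.11, with DESeq2, at an adjusted p of 0.0882, and with no filter on low counts, at 0.0617.

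Tnfrsf25, the receptor of Tnfsf15 that is known from T cells, was at 0.0733, 0.0471 and 0.139 FPKM in LPS kidneys, against 0.704, 0.127 and 0.167 FPKM in Control kidneys. Control replicate 1 stood far above the rest, and the groups overlapped. Its log2 fold change of -1.90 ± 0.73 (SE) did not pass, with an adjusted p of 0.0559 (edgeR). Without Control replicate 1 it was -0.78 with an adjusted p of 0.31, and limma-voom gave an adjusted p of 0.108. It passed without Control replicate 2 (-2.29, adjusted p = 0.0351) or Control replicate 3 (-2.22, 0.0464), and with DESeq2 (0.04). Ngfr, the low-affinity neurotrophin receptor, was at 0.600, 0.184 and 0.131 FPKM in LPS kidneys, against 0.393, 0.368 and 0.441 FPKM in Control kidneys. LPS replicate 1 lay above every Control library and the other LPS libraries below, and the log2 fold change of -0.39 did not pass. Without LPS replicate 1 it was -1.32 with an adjusted p of 0.0225 (edgeR).

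Among TRAF-binding receptors 6 rose and 0 fell of the 11 tested, against 25.7% and 24.8% of all genes tested, and 5 more were below the filter. Tnfrsf12a, also named Fn14, the injury-responsive receptor of TWEAK, was at 116, 168 and 238 FPKM in LPS kidneys, against 17.4, 15.2 and 14 FPKM in Control kidneys. The LPS libraries spread widely, yet the lowest was far above every Control library. Tnfrsf12a rose by a log2 fold change of 3.50 ± 0.25 (SE) with an adjusted p of 6.21e-06 (edgeR), and its mean was 174 ± 61 FPKM in LPS kidneys and 15.6 ± 1.70 FPKM in Control kidneys (SD, n = 3 each).

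Tnfrsf1b, the second TNF receptor, known from leukocytes and endothelium, was at 6.50, 6.96 and 6.31 FPKM in LPS kidneys, against 1.98, 1.51 and 0.849 FPKM in Control kidneys. It rose by a log2 fold change of 2.20 ± 0.24 (SE) with an adjusted p of 7.77e-05 (edgeR), and the LPS libraries varied less than the Control libraries. The ratio of Tnfrsf1b to Tnfrsf1a in FPKM was 0.0758, 0.0717 and 0.0669 in LPS libraries, against 0.0599, 0.0491 and 0.0303 in Control libraries. Tnfrsf1a was thus the more abundant TNF receptor in each library. Ltbr, the lymphotoxin beta receptor, which signals through the alternative NF-kB arm, was at 65.7, 73.2 and 75.5 FPKM in LPS kidneys, against 43.8, 44.5 and 40.0 FPKM in Control kidneys. Ltbr rose by a log2 fold change of 0.75 ± 0.09 (SE) with an adjusted p of 0.000147 (edgeR), a smaller change on a high level, with the groups apart.

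Cd40, a receptor of antigen-presenting cells that renal tubular and endothelial cells can also carry, was at 4.69, 3.60 and 2.80 FPKM in LPS kidneys, against 1.37, 1.01 and 0.625 FPKM in Control kidneys. All LPS libraries were above all Control libraries, and Cd40 rose by a log2 fold change of 1.89 ± 0.31 (SE) with an adjusted p of 0.00089 (edgeR). Tnfrsf9, the costimulator 4-1BB of activated lymphocytes, was at 0.819, 0.866 and 0.612 FPKM in LPS kidneys, against 0.0586, 0.151 and 0.111 FPKM in Control kidneys. Its level was low in both groups, with no overlap, and it rose by a log2 fold change of 2.82 ± 0.41 (SE) with an adjusted p of 0.000463 (edgeR). Eda2r, the receptor of the ectodysplasin A2 isoform, was at 0.258, 0.487 and 0.227 FPKM in LPS kidneys, against 0.161, 0.128 and 0.0849 FPKM in Control kidneys. LPS replicate 2, the library with seminal vesicle transcripts, was highest, and the part of those transcripts in the value was not tested. Eda2r rose by a log2 fold change of 1.39 ± 0.41 (SE) with an adjusted p of 0.0184 (edgeR). That call was lost without LPS replicate 2 (0.97, adjusted p = 0.0825), Control replicate 2 (adjusted p = 0.0543) or Control replicate 3 (adjusted p = 0.0683).

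The other 5 tested TRAF-binding receptors did not pass. Tnfrsf19, also named TROY, was at 0.120, 1.23 and 0.156 FPKM in LPS kidneys, against 0.812, 0.485 and 0.466 FPKM in Control kidneys. LPS replicate 2, the library with seminal vesicle transcripts, held the highest value of all and the other LPS libraries the lowest. Without LPS replicate 2 the log2 fold change of Tnfrsf19 was -2.06 with an adjusted p of 0.00296 (edgeR), against -0.20 ± 0.75 (SE) with it, and the part of those transcripts in the value was not tested. Tnfrsf11a, which encodes RANK, the osteoclast receptor, was at 0.927, 0.452 and 0.463 FPKM in LPS kidneys, against 1.07, 0.724 and 0.665 FPKM in Control kidneys. It did not pass, at -0.41, and without LPS replicate 1 it was -0.81 with an adjusted p of 0.0318 (edgeR). Tnfrsf14 (HVEM), Tnfrsf18 (GITR) and Tnfrsf13b (TACI) had log2 fold changes of 0.21, 0.83 and -0.82, with adjusted p-values of 0.483, 0.292 and 0.161 (edgeR). Without Control replicate 1 that of Tnfrsf18 was 1.49 with an adjusted p of 0.112. Exons of Tnfrsf18 share 27.2% of their bases with Gm16008 on the other strand in GENCODE M21, so its counts are uncertain.

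Among the decoy receptors and Tnfrsf26, 3 of 4 rose, led by Tnfrsf23, against 25.7% of all genes tested. Tnfrsf23, a mouse decoy receptor for TRAIL, was at 8.44, 4.06 and 3.52 FPKM in LPS kidneys, against 0.400, 0.295 and 0.324 FPKM in Control kidneys. LPS replicate 1 was above the other LPS libraries, and all 3 lay well above the Control libraries. Tnfrsf23 rose by a log2 fold change of 3.98 ± 0.36 (SE) with an adjusted p of 2.47e-05 (edgeR), the largest fold change of the 30 tested members. Tnfrsf22, its neighbour on chromosome 7 and also a TRAIL decoy, was at 1.20, 0.968 and 0.825 FPKM in LPS kidneys, against 0.681, 0.490 and 0.492 FPKM in Control kidneys. Tnfrsf22 rose by a log2 fold change of 0.86 ± 0.22 (SE) with an adjusted p of 0.0106 (edgeR), with no overlap between the groups.

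Tnfrsf26, the next gene in that row and a receptor without an established ligand, was at 0.224, 0.0974 and 0.0520 FPKM in LPS kidneys, against 0.376, 0.172 and 0.182 FPKM in Control kidneys. The groups overlapped and the log2 fold change of -0.95 ± 0.54 (SE) did not pass, except without LPS replicate 1, at -1.65 with an adjusted p of 0.0362 (edgeR). Exons of Tnfrsf23 and Tnfrsf26 also share 4.14% and 3.33% of their bases with E230032D23Rik on the other strand. Of the 50-base words in the GENCODE transcripts of Tnfrsf23, 18% also occur in those of Tnfrsf22 and 0% in those of Tnfrsf26. Reads of Tnfrsf22 and Tnfrsf23 can therefore be shared in part, which leaves their single values uncertain. Summed counts were 2093 for Tnfrsf23 and 547 for Tnfrsf22 in LPS kidneys, against 124 and 283 in Control kidneys. The part of Tnfrsf23 reads in the counts of Tnfrsf22, and so in its call, was not tested. The ratio of Tnfrsf23 to Tnfrsf22 in FPKM was 7.06, 4.19 and 4.26 in LPS libraries, against 0.587, 0.602 and 0.658 in Control libraries. The pair thus held opposite orders in the groups.

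Tnfrsf11b, which encodes osteoprotegerin, the secreted decoy for RANKL and TRAIL, was at 0.465, 0.550 and 0.522 FPKM in LPS kidneys, against 0.0936, 0.0658 and 0.178 FPKM in Control kidneys. The LPS libraries lay close together above all Control libraries, and Tnfrsf11b rose by a log2 fold change of 2.18 ± 0.41 (SE) with an adjusted p of 0.00203 (edgeR). Its ligand Tnfsf11 (RANKL) had 0 counts in the LPS libraries together and 2 in the Control libraries together.

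Known ligand and receptor pairs were also set side by side. Of 22 pairs listed, both genes were tested in 11. Tnfsf12 and Tnfrsf12a are one such pair: the receptor stood at 14.4, 18.8 and 26.3 times the FPKM of the ligand in LPS libraries, against 3.00, 2.45 and 2.32 times in Control libraries. For TRAIL, the decoy Tnfrsf23 stood at 4.31, 3.37 and 3.13 times the FPKM of the death receptor Tnfrsf10b in LPS libraries, against 0.389, 0.410 and 0.572 times in Control libraries. Both ratios separated the groups. The other decoys for TRAIL, Tnfrsf22 and Tnfrsf11b, had log2 fold changes of 0.86 and 2.18, beside 0.90 for Tnfrsf10b. Tnfrsf22 thus changed about as much as the death receptor, and the ratio of Tnfrsf23 does not stand for all TRAIL decoys. The log2 fold change was 3.79 for Tnf, 1.60 for Tnfrsf1a and 2.20 for Tnfrsf1b. Mean Tnfrsf1a stood at 65.9 times the FPKM of Tnf in LPS kidneys and 306 times in Control kidneys.

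**Figure D3:**
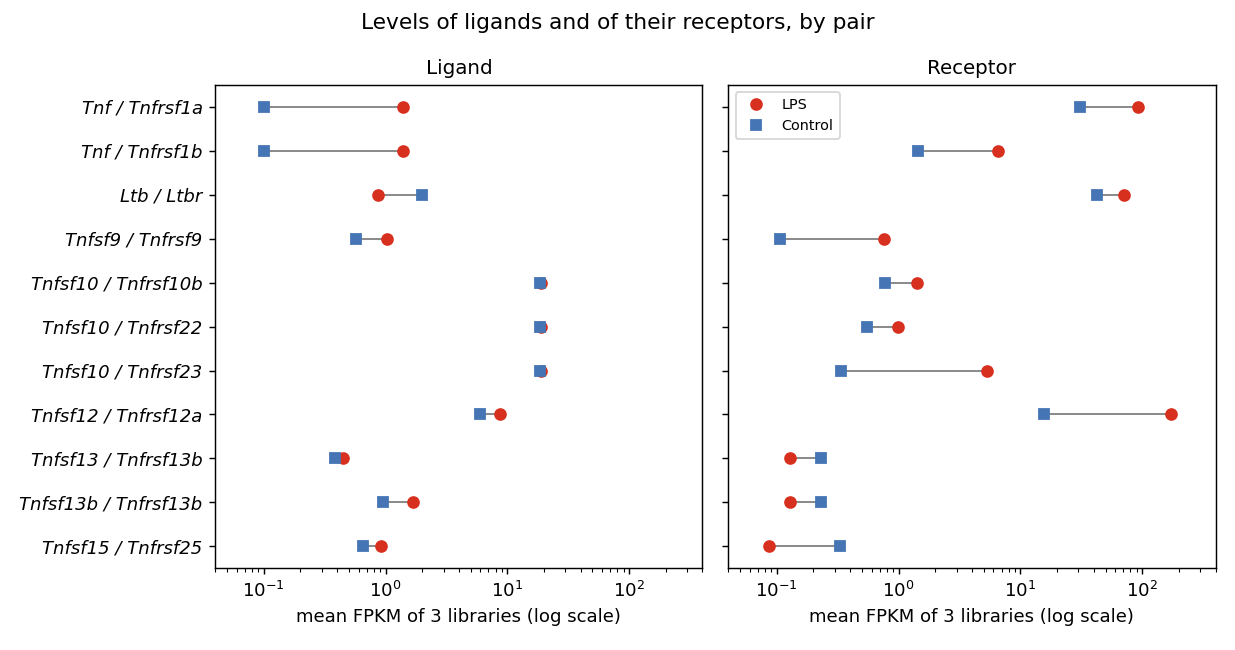
Mean FPKM (log x axes) of the ligand (left panel) and the receptor (right panel) for the 11 pairs in which both genes were tested, with LPS as circles and Control as squares. Tnf moves far in the left panel, Tnfsf10 hardly moves, and Tnfrsf12a and Tnfrsf23 move far in the right panel.

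The 13 members below the filter had at most 31 counts in a group and were left out of the test above. With no filter, edgeR called 1 of the 13, Cd27, lower, at a log2 fold change of -2.78 with an adjusted p of 0.0377. DESeq2 gave an adjusted p of 0.0539 for Cd27 and called 0 of the 13. It gave no adjusted p for Cd40lg, Cd70, Lta, Tnfrsf17, Tnfsf11 and Tnfsf18, which therefore could not be called. With it 2 of the 13, Cd27 and Tnfrsf13c, were at an unadjusted p under 0.05. Summed counts were higher in LPS for 4 of the 13 and lower for 9. Fasl, the Fas ligand of cytotoxic cells, had 6, 2 and 4 counts in LPS kidneys, against 1, 1 and 2 counts in Control kidneys, while its receptor Fas rose. Cd40lg, the ligand of Cd40, made by T cells, had 2, 0 and 0 counts in LPS kidneys, against 2, 1 and 0 counts in Control kidneys. Tnfrsf4 (OX40) and Tnfrsf8 (CD30), receptors of activated lymphocytes, had 30 and 13 counts in the LPS libraries together and 17 and 8 in the Control libraries together. Tnfsf18, the GITR ligand, and Tnfrsf17, the plasma cell receptor BCMA, had 0 counts in LPS libraries, against 2 and 1 in Control libraries.

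Of the members below the filter, Cd27, Tnfrsf13c, Cd70, Tnfsf8 and Tnfsf14 had their most counts in Control replicate 1, and are grouped here after their values were seen. Cd27, a receptor of T and B cells, had 3, 1 and 0 counts in LPS kidneys, against 15, 10 and 3 counts in Control kidneys. Tnfrsf13c, the BAFF receptor of B cells, had 0, 1 and 1 counts in LPS kidneys, against 20, 1 and 1 counts in Control kidneys. Cd70, the ligand of Cd27, had 0, 0 and 0 counts in LPS kidneys, against 6, 0 and 0 counts in Control kidneys, and Tnfsf8, the CD30 ligand, had 4, 6 and 1 counts in LPS kidneys, against 24, 6 and 1 counts in Control kidneys. Tnfrsf9, Tnfrsf4 and Tnfrsf8, receptors of activated lymphocytes, had more summed counts in LPS than in Control kidneys. Tnfsf14, also named LIGHT, had 4, 3 and 1 counts in LPS kidneys, against 10, 5 and 9 counts in Control kidneys. In CPM, LPS lay below every Control value for Tnfsf14, Cd27 and, barely, Tnfrsf13c (0.0324 against 0.0326), and above for Tnfrsf4. Among all genes tested, 29.8% lay below and 30.5% above.

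Markers of B and plasma cells and of T cells were summed in each library. The 6 B and plasma cell genes summed to 2.65 to 3.60 CPM in LPS and 6.68 to 23.3 CPM in Control kidneys, the top value being Control replicate 1, and both tested markers of the 6 fell. The 7 listed T cell genes summed to 3.86 to 6.39 CPM in LPS and 7.33 to 14.2 CPM in Control kidneys, again highest in Control replicate 1, and 4 of 6 tested fell. Among all genes tested 24.8% were called lower. Cd79a and Ms4a1, defining B cell genes, were each highest in Control replicate 1. Cd79a had 4, 0 and 0 counts in LPS kidneys, against 74, 13 and 8 counts in Control kidneys. Ms4a1 had 1, 1 and 0 counts in LPS kidneys, against 62, 4 and 1 counts in Control kidneys. The part of these cells in the member values was not tested.

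Neutrophil markers were higher in LPS, and those of macrophages and endothelium showed no common direction. Beside the calls below, 25.7% of all genes tested were higher and 24.8% lower. The 8 neutrophil genes summed to 65.2 to 92.2 CPM in LPS and 2.83 to 3.48 CPM in Control kidneys, and all 5 tested were higher, while Ly6g and Mpo had 4 and 6 counts in the LPS libraries together and 2 and 0 in the Control libraries together. The 8 monocyte and macrophage genes summed to 195 to 224 CPM in LPS and 140 to 224 CPM in Control kidneys, with 3 higher and 2 lower. The 5 endothelial genes summed to 205 to 263 CPM in LPS and 233 to 303 CPM in Control kidneys, with 0 higher and 1 lower. The part of these cells in Tnf, Tnfrsf1b, Cd40 and Tnfrsf9 was not tested.

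Genes that act with the receptors were also more often higher than lower. Among all genes tested, 25.7% were higher and 24.8% lower, with a median log2 fold change of 0.01. Of 23 adaptors and ligases, 14 rose and 1 fell, with a median log2 fold change of 0.36. Birc3, an inhibitor of apoptosis and ubiquitin ligase of the TNF receptor complex, was at 15.4, 13.7 and 12.9 FPKM in LPS kidneys, against 3.25, 2.56 and 2.65 FPKM in Control kidneys, and rose by a log2 fold change of 2.33 ± 0.10 (SE) with an adjusted p of 4.52e-07 (edgeR). On the log2 scale its paralogue Birc2 rose by 1.03 ± 0.08, Casp8, the initiator caspase of death receptors, by 0.93 ± 0.08, Traf3, a brake on the alternative NF-kB arm, by 0.67 ± 0.08 and Tank, a TRAF-binding adaptor, by 0.64 ± 0.10. Tab1, a partner of the kinase TAK1, was the one that fell, at -0.42 ± 0.09, and is named for that reason after its value was seen. Ripk3, the necroptosis kinase, and Edaradd, the adaptor of Edar, rose by 1.70 ± 0.30 and 1.59 ± 0.35, and are also named after their values were seen. Among those that did not pass were Tradd and Ripk1, which bind the Tnfrsf1a complex, at -0.02 and 0.14.

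Of 8 deubiquitinases and brakes, 5 rose and 0 fell, against 25.7% and 24.8% of all genes tested. Their median log2 fold change was 0.38. Tnfaip3, which encodes A20, the ubiquitin-editing inhibitor of TNF signalling, was at 13.4, 12 and 9.63 FPKM in LPS kidneys, against 1.52, 1.35 and 1.20 FPKM in Control kidneys. Tnfaip3 rose by a log2 fold change of 3.12 ± 0.14 (SE) with an adjusted p of 4.13e-07 (edgeR), with the groups far apart. On the log2 scale its partner Tnip1 rose by 1.82 ± 0.19, Otulin, a linear deubiquitinase, by 0.52 ± 0.08 and Tnip2 by 0.72 ± 0.15. Sppl2a, an intramembrane protease that cleaves Tnf remnants, rose by 0.24 ± 0.07, and Cyld did not pass, at -0.05.

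In the alternative NF-kB arm, 3 of 4 genes rose, against 25.7% of all genes tested, and the median log2 fold change was 1.11. Relb and Nfkb2, its transcription factor subunits, rose by 2.14 ± 0.11 and 1.76 ± 0.08 on the log2 scale. Map3k14, which encodes the kinase NIK, rose by 0.46 ± 0.12, and Chuk, its target kinase, did not pass at -0.18. Of 5 sheddases and partners, 4 rose and 1 fell, against 25.7% and 24.8% of all genes tested. Rhbdf2, which carries the TNF-releasing protease Adam17 to the cell surface in macrophages, was at 7.85, 6.88 and 7.48 FPKM in LPS kidneys, against 2.52, 2.49 and 2.31 FPKM in Control kidneys and rose by a log2 fold change of 1.61 ± 0.10 (SE) with an adjusted p of 2.55e-06 (edgeR). On that scale Adam17 rose by 0.21 ± 0.08, Adam10 by 0.43 ± 0.08 and Rhbdf1 by 0.19 ± 0.07, all small changes. Timp3, an inhibitor of Adam17, was lower, at a log2 fold change of -0.52 ± 0.08. Eda and Relt, family members that the symbol rule does not take, were not called, at 0.77 and 1.03 with adjusted p-values of 0.0652 and 0.0596 (edgeR).

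**Figure D4:**
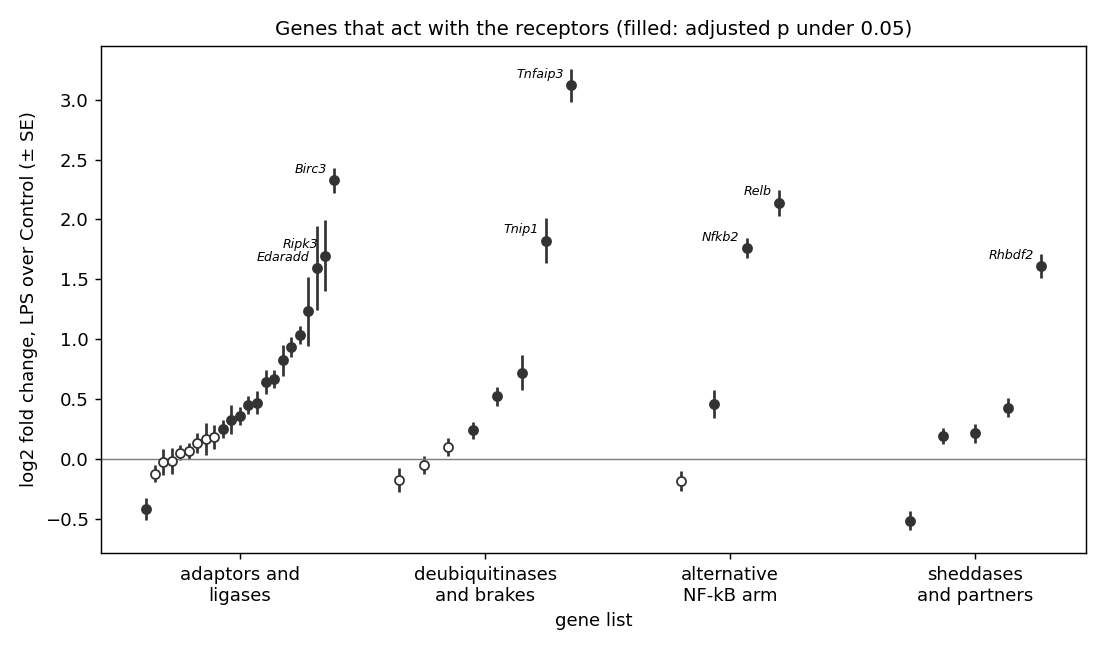
Log2 fold change of LPS over Control (y axis, bars are ± SE) for the 23 adaptors and ligases, 8 brakes, 4 genes of the alternative NF-kB arm and 5 sheddases and partners, sorted within each list. Filled points passed the threshold, and Tnfaip3, Birc3 and Relb stand highest, while Tab1 and Timp3 are the filled points below 0.

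The promoters of the called members were read for letters of the NF-kB and AP-1 motifs. RefSeq windows of 250 bases before the start (GRCm38.p6) were matched by symbol for 34 of the 43 members. The motifs searched on both strands were GGGNNTTTC, a simplified form of the NF-kB motif, and TGANTCA for AP-1. The simplified form can miss NF-kB sites with other letters, and a match to it need not be a full NF-kB site. The windows of Tnf and Ltb are shown as neighbouring genes of which Tnf alone was called. That of Tnfrsf12a is shown as the member with the highest mean FPKM in LPS kidneys. That of Tnfrsf9 is shown as the window with both motifs. Capitals mark matches on either strand.
Tnf (chr17:35202008-35202257, minus strand): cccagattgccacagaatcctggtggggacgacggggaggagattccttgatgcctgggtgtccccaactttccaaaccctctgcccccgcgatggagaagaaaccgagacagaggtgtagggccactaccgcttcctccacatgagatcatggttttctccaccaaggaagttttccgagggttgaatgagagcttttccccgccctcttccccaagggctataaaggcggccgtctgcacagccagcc
Ltb (chr17:35194257-35194506, plus strand): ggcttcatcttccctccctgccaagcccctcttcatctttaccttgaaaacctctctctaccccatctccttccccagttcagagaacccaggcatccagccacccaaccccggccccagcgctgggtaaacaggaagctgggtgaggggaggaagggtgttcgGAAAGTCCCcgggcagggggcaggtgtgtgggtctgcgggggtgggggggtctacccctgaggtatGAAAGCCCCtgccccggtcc
Tnfrsf12a (chr17:23677450-23677699, minus strand): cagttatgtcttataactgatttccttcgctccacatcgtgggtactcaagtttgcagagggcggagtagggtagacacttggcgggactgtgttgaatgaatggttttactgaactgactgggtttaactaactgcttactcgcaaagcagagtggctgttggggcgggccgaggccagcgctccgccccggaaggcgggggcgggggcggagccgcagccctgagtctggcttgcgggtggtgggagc
Tnfrsf9 (chr4:150927749-150927998, plus strand): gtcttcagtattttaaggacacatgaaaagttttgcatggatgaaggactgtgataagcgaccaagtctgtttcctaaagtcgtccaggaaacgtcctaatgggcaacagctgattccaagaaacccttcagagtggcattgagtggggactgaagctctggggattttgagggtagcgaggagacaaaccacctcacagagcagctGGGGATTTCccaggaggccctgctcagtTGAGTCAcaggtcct
An NF-kB match was found for 1 of 9 members called higher with a window, Tnfrsf9, and for 2 of 14 tested and not called higher, Ltb and Tnfrsf25. Over all RefSeq genes, 4.35% had one. An AP-1 match was found for 2 of the 9, Fas and Tnfrsf9, for 2 of the 14 and for 7.82% of all genes. The Tnfrsf9 window belongs to the second of its 2 listed starts, and the files do not show which start was used. No match says only that these letters are not in this window.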

How the data were processed

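Kidney RNA of 6 mice was sequenced in bulk. The labels' protocols name TRIzol for extraction and the VAHTS Universal V6 kit for the libraries. The authors deposited raw counts and FPKM values per gene symbol. Per the submitters' processing notes, the tools included SAMtools, HISAT2, R 3.2.0, HTSeq and DESeq2, with no roles stated. The genome build, the annotation and the strand setting were not given in the sources used here. The deposited FPKM equal count over a whole-number gene length and library total in 106080 of 106080 values, within a relative tolerance of 1e-05.

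Groups came from the sample titles. The test was run in edgeR 4.0.16 (R 4.3.3): filterByExpr at its defaults (minimum count 10, minimum total 15) kept 14219 genes and removed 3461, TMM factors scaled libraries, and the quasi-likelihood test was two-sided with Benjamini-Hochberg adjustment over all genes kept. The SE is the log2 fold change over the square root of F, and 95% intervals use it with the test's degrees of freedom. CPM values use TMM factors; FPKM values do not. The design text gives 3 mice per group, so the libraries were taken as separate mice. The test was checked on simulated counts of 14219 genes for this comparison with 200 changed, where it recovered 49.3% of 1.5-fold, 73.8% of 2-fold and 98.4% of 4-fold changes, and 4 of 148 calls were unchanged genes. The simulated counts used Control means and the trended dispersion, without spread between genes around that trend. Far fewer genes were changed than were called in the data, so these rates may not carry over.

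The members and gene lists were chosen with earlier results of these data known. The text describes each member, and names from each list of partner genes up to 5 with the smallest p; other partners named are examples chosen after their values were seen. Alternatives were DESeq2 1.42.0, RLE factors, unscaled library sizes, no filter, a floor of 1 on mean CPM and limma-voom. Others were limma 3.58.1 on log2(FPKM + 1) or log2(FPKM + 0.1), the replicate number as a block, and each library left out. Added after seeing the data was removal of 177 genes whose share of library total in LPS replicate 2 exceeded that of each other library by over 32-fold. No minimum count was set for that step, so genes with few counts can be among them.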

Additional observations from a re-analysis of the deposited data

How the results depend on the processing

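Of 30 tested members, 16 kept their direction and side of the threshold under each of the 16 alternatives that tested them, 12 of them called higher: Tnf, Tnfsf12, Fas, Tnfrsf1a, Tnfrsf1b, Tnfrsf9, Tnfrsf11b, Tnfrsf12a, Tnfrsf22, Tnfrsf23, Cd40 and Ltbr. A floor of 1 on mean CPM left Tnfrsf11b untested. The alternatives did not address reads shared by Tnfrsf22 and Tnfrsf23. The number of members higher lay between 12 and 16 and moved by no more than 1.5 times. The number lower was 0 with that floor, with log2(FPKM + 1) and with the replicate block, and 0 to 4 on leaving out 1 library (4 without LPS replicate 1, namely Cd27, Ngfr, Tnfrsf11a and Tnfrsf26). With no filter on low counts 1 was lower, Cd27 in place of Edar, and with DESeq2 Tnfrsf25 in its place. Leaving out 1 library also turned signs, and the cause was not tested: Tnfsf10 ranged from -0.038 to 0.11 and Tnfrsf19 from -2.06 to 0.27. No called member's fold moved by over 1.5 times in these fits. Over all genes, 3077 to 3666 were higher and 3010 to 3490 lower without 1 library.

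Replicate numbers showed no sign of pairing the mice, though so few libraries cannot exclude it. Deviations of same-numbered libraries correlated at 0.0478, -0.0535 and -0.00201, and 2 of 6 libraries correlated best with their own number. With the replicate block 16 members were higher, Tnfrsf21 and Tnfsf13b in addition, 0 were lower, and 3414 and 3331 genes were higher and lower.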

Other observations

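Control replicate 1 held the highest Control CPM for 19 of the 30 tested members, against 36.9% of all genes tested. Control replicate 2 did so for 4, against 31.1%, and Control replicate 3 for 7, against 32%. LPS replicate 1 held the highest LPS CPM for 13 of the 30, against 35.9% of all genes, LPS replicate 2 for 10, against 25.9%, and LPS replicate 3 for 7, against 38.2%.

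The decoy receptors and Tnfrsf26 together stood at 10.3 FPKM in LPS replicate 1, against 5.67 and 4.92 FPKM in the other LPS libraries. Tnfrsf12a went the other way, with its lowest LPS value in LPS replicate 1.

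Members lie in gene rows: of 43, those of 13 neighbouring pairs in RefSeq's GRCm38.p6 annotation had at most 1 coding gene between them. Ltbr and Tnfrsf1a on chromosome 6, with 1 coding gene between them, and Tnfrsf22 and Tnfrsf23 on chromosome 7, with 0 between them, were the pairs in which both were called, each higher. Tnfrsf26 beside Tnfrsf22, Ltb beside Tnf and Tnfsf13 near Tnfsf12 were not called while their neighbours were.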
